A study of Mus musculus with 11 samples.

Results

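Transcripts of the interleukin-1 (IL-1) and interleukin-6 (IL-6) circuit were examined in 11 orthotopic pancreatic tumours, of which 6 came from hosts with an induced Pkn2 deletion (KO, lettered A to F) and 5 from hosts without it (WT, lettered A to E). The genes were the 10 rows of the raw count table listed for this circuit, of 54232 gene rows in all. They comprised the IL-1 ligands Il1a and Il1b and their receptor Il1r1, the IL-6 family cytokines Il6, Lif, Osm and Il11, the IL-6 receptor Il6ra, the chemokine Cxcl12, and the transcription factor Stat3. All 10 passed the filter on low counts, as did 16536 genes in total.

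Both groups of hosts were adult female C57BL/6 littermates heterozygous for RosaCreERT2, a ubiquitously expressed Cre recombinase that tamoxifen activates, and all had received the same tamoxifen course. KO hosts were Pkn2 fl/fl and WT hosts Pkn2 +/+. Recombination was therefore not limited to fibroblasts, and could occur in the host's leukocytes, vessels and normal pancreas as well. Each tumour was grown from TB32048 cells placed in the pancreas, a single carcinoma line from a female KPC mouse that keeps Pkn2, and each library was made from a piece of a whole tumour.

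In pancreatic carcinoma, IL-1 secreted by carcinoma cells and macrophages acts on fibroblasts. It engages the receptor encoded by Il1r1 and, through the kinases and adaptors of that receptor, the transcription factor NF-κB. Fibroblasts that receive this signal take on an inflammatory state, known as iCAF, and secrete IL-6, LIF, IL-11, granulocyte attractants and CXCL12. LIF in turn acts on the same cells through JAK kinases and STAT3, which keeps the state going, whereas TGF-β drives the contractile state of myofibroblasts, known as myCAF. The study asked whether loss of the kinase PKN2 from the host shifted tumour fibroblasts from the latter state to the former.

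Total counts lay between 22791627 and 28017673 for KO tumours and between 16294128 and 31121422 in WT tumours. The share of counts in ribosomal RNA genes was 0.308% to 0.739% in KO libraries and 0.241% to 6.39% in WT libraries, highest in WT replicate B, and was above 1% also in WT replicates A and C at 1.31% and 1.40%. In these same 3 libraries the level of a gene relative to its mean over tumours fell with exonic length, with a Spearman correlation over genes of -0.501 in A, -0.451 in B and -0.171 in C, against 0.116 to 0.396 in the other 8 tumours. Pkn2 itself was at 96.6 ± 9.34 CPM among KO tumours (SD, n = 6) and 96.7 ± 34.6 CPM among WT tumours (SD, n = 5). This checks no label, since the carcinoma cells carry an intact gene and the counts are per whole gene, not per exon. Levels are given as CPM, which are counts scaled to a common library size with TMM factors, and 3 counts amounted to 0.0964 to 0.184 CPM.

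Of the 10 genes, 9 had a promoter entry in the RefSeq table used, and the 250 bases before the transcription start are shown for Il1a, Il1b and Il6, because these 3 cytokines went up and down together from tumour to tumour within each genotype (values below); they were chosen after those values were seen. Positions are on GRCm38.p6, sequences read 5′ to 3′ on the strand of the gene, and capitals mark matches on either strand to a κB site, a STAT site (TTCNNNGAA), an AP-1 site (TGANTCA) or a C/EBP site (TTGCNNAA). No 2 of the marked matches overlap.
Il1a, chr2:129309973-129310222, minus strand: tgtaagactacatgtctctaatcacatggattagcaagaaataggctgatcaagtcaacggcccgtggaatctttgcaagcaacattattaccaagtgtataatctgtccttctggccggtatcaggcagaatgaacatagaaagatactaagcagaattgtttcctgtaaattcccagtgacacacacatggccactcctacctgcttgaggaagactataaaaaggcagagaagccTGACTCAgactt
Il1b, chr2:129371140-129371389, minus strand: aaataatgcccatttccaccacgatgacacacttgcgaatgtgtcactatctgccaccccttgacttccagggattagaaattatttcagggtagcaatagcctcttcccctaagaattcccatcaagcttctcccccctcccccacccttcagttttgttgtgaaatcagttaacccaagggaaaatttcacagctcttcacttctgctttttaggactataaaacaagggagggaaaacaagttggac
Il6, chr5:30012864-30013113, plus strand: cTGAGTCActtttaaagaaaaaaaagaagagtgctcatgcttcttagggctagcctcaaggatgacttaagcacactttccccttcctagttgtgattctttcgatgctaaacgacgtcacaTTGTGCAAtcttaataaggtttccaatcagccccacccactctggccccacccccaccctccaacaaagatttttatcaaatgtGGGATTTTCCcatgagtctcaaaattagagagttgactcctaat

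The Il6 window held the κB match GGGATTTTCC from 44 to 35 bases before the start, an AP-1 match TGAGTCA from 249 to 243 bases before it, and a C/EBP match, read on the opposite strand, from 128 to 121 bases before it. The Il1a window held an AP-1 match TGACTCA from 12 to 6 bases before the start, and no match to the other 3 sites. None of these letters were found in the Il1b window. Both Il1a and Il1b had the letters TATAAA close to the start, at 32 and 31 bases before it. Of 32851 promoter windows of this length, 3.90% held the κB pattern, 7.02% the STAT pattern, 6.75% the AP-1 pattern, 9.56% the C/EBP pattern and 12.4% the letters TATAAA. A match is a description of the sequence and not a site shown to be bound.

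The IL-1 ligands were examined first. Gene coordinates here and below are 1-based on GRCm38. Il1a (ENSMUSG00000027399, chromosome 2, 129299610 to 129309972, minus strand) and Il1b (ENSMUSG00000027398, chromosome 2, 129364570 to 129371139, minus strand) lie near each other and encode the 2 agonists of the receptor. Il1b was at 199 CPM in WT replicate A, 187 in B, 49.3 in C, 29.1 in D and 89.9 in E, and ranged from 21.7 (replicate D) to 137 CPM (replicate C) in KO tumours, with a median of 48.8. Il1a was at 21.1 CPM in WT replicate A, 13.2 in B, 5.95 in C, 5.13 in D and 11.1 in E, and ranged from 3.66 (replicate D) to 11.6 CPM (replicate C) in KO tumours, with a median of 6.80. Both ligands were highest in WT replicates A and B and lowest, among all 11 tumours, in KO replicate D, and the groups overlapped. The log2 fold change of KO against WT was -0.69 for Il1a (SE 0.38, edgeR adjusted p = 0.287) and -0.77 for Il1b (SE 0.54, edgeR adjusted p = 0.392), so that neither differed beyond the spread between tumours.

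Il1rn, which encodes the antagonist that occupies the receptor without signalling, kept pace with Il1b. It was at 66.4 ± 34.3 CPM among KO tumours (SD, n = 6) and 111 ± 61.1 CPM among WT tumours (SD, n = 5). The ratio of Il1b to Il1rn counts within each library is free of scaling between libraries, and was 0.788 to 1.16 in KO tumours, inside the 0.504 to 1.57 of WT tumours. It is not free of a length trend in a library, since Il1b has 1907 bases of exonic sequence and Il1rn 5535. The mean log2 ratio was -0.13 ± 0.21 (SD, n = 6) against -0.13 ± 0.58 (SD, n = 5), which differed by 0.008 (exact two-sided permutation test over all splits of the tumours, p = 0.965, adjusted over 3 ratios 0.965).

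Il1r1 (ENSMUSG00000026072, chromosome 1, 40225080 to 40317257, plus strand), the signalling receptor that fibroblasts carry, showed a narrow range in KO tumours. It lay between 60.6 (replicate B) and 86.2 CPM (replicate C) there, with a median of 65.6, and was at 42.9 CPM in WT replicate A, 50.2 in B, 59.7 in C, 57.4 in D and 109 in E. All KO tumours were above 4 of the 5 WT tumours and below WT replicate E, which also had the highest sum of fibroblast marker genes among WT tumours, 9509 CPM against 2621 to 4510 CPM in the other 4. What share the fibroblast content had in this Il1r1 result was not tested. The log2 fold change was 0.15 (SE 0.22, edgeR adjusted p = 0.709), and was 0.43 without WT replicate E (edgeR unadjusted p = 0.0199, adjusted p = 0.0915). Its co-receptor Il1rap and the decoy receptor Il1r2 had log2 fold changes of 0.42 (SE 0.32) and 0.19 (SE 0.32), with edgeR adjusted p-values of 0.437 and 0.742.

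**Figure D1:**
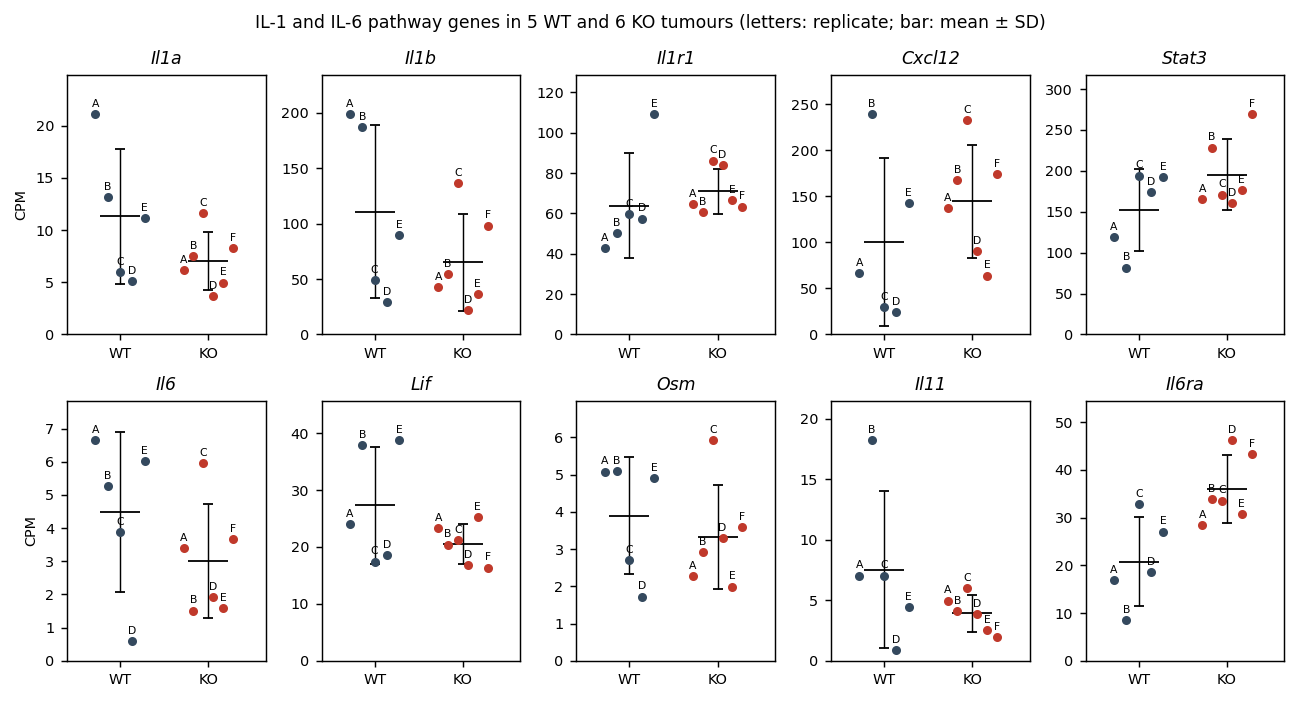
TMM-scaled CPM (linear axes from 0) of the 10 genes in 5 WT and 6 KO tumours; each point is a tumour, lettered by replicate, and the bars give mean ± SD. The groups overlap for all 10 genes, and WT replicates A and B sit at opposite ends for Il1b (199 and 187 CPM, the highest) and Stat3 (119 and 81.7 CPM, the lowest).

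The secreted cytokines of the IL-6 family signal through the shared receptor chain encoded by Il6st, each with a partner chain of its own. Il6 (ENSMUSG00000025746, chromosome 5, 30013114 to 30019981, plus strand), the cytokine that defines the inflammatory state, was scarce in the bulk tumours, with 39 to 171 raw counts in each KO tumour and 15 to 204 in each WT tumour. It was at 6.64 CPM in WT replicate A, 5.26 in B, 3.88 in C, 0.587 in D and 6.03 in E, and ranged from 1.51 (replicate B) to 5.95 CPM (replicate C) in KO tumours, with a median of 2.65. WT replicate D lay below every other tumour, and the KO range fell inside the WT range. The log2 fold change was -0.57 (SE 0.53, edgeR adjusted p = 0.516).

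Lif (ENSMUSG00000034394, chromosome 11, 4257557 to 4272514, plus strand) encodes the ligand that carries the signal on to STAT3 in stellate cells. Its KO levels were tightly grouped, from 16.4 (replicate F) to 25.2 CPM (replicate E) with a median of 20.8. WT tumours were at 24.0 CPM in replicate A, 37.9 in B, 17.4 in C, 18.5 in D and 38.7 in E, so that only WT replicates B and E exceeded all KO tumours. KO against WT, the log2 fold change was -0.41 (SE 0.24, edgeR adjusted p = 0.301).

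Osm (ENSMUSG00000058755, chromosome 11, 4236420 to 4241026, plus strand), the neighbour of Lif on chromosome 11, encodes oncostatin M, which is made mainly by myeloid cells. It was at 5.08 CPM in WT replicate A, 5.09 in B, 2.70 in C, 1.72 in D and 4.91 in E, and ranged from 1.99 (replicate E) to 5.91 CPM (replicate C) in KO tumours, with a median of 3.10. These ranges overlapped almost entirely, and the log2 fold change was -0.23 (SE 0.36, edgeR adjusted p = 0.730).

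Il11 (ENSMUSG00000004371, chromosome 7, 4772373 to 4782859, minus strand), a cytokine of activated fibroblasts, had the widest fold range among WT tumours of the 10 genes. It was at 7.03 CPM in WT replicate A, 18.2 in B, 7.03 in C, 0.862 in D and 4.40 in E, a 21.1-fold range, and lay between 1.93 (replicate F) and 6.02 CPM (replicate C) in KO tumours, a 3.11-fold range with a median of 3.99. WT replicate B was the highest of all tumours and WT replicate D the lowest. At -0.93, the log2 fold change (SE 0.55, edgeR adjusted p = 0.314) was the most negative of the 10 genes, became -0.30 without WT replicate B, and was -1.21 without WT replicate D.

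Among the receptors, Il6ra (ENSMUSG00000027947, chromosome 3, 89864059 to 89913196, minus strand) came nearest to a separation of the genotypes. This gene encodes the chain that binds IL-6, which leukocytes carry on their surface and also shed. It lay between 28.5 (replicate A) and 46.1 CPM (replicate D) in KO tumours, with a median of 33.7, and was at 16.9 CPM in WT replicate A, 8.51 in B, 32.8 in C, 18.6 in D and 27.0 in E. All KO tumours were above 4 of the 5 WT tumours, and WT replicate C lay within the KO range. The mean was 36.0 ± 7.09 CPM among KO (SD, n = 6) and 20.8 ± 9.41 CPM among WT tumours (SD, n = 5), or 0.79 on the log2 scale (SE 0.29, edgeR unadjusted p = 0.0165). After adjustment it did not pass the threshold (edgeR adjusted p = 0.132, DESeq2 adjusted p = 0.0691). Across all 19 alternative fits the log2 fold change stayed between 0.45 and 1.01, with adjusted p-values of 0.0691 to 0.677.

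The other receptor chains did not separate the genotypes either. Il6st, the shared chain, had a fold change of 0.40 on the log2 scale (SE 0.37, edgeR adjusted p = 0.527), while Lifr and Osmr, the chains for LIF and oncostatin M, had 0.03 (SE 0.42, edgeR adjusted p = 0.975) and 0.17 (SE 0.29, edgeR adjusted p = 0.742). Il11ra1, the chain for IL-11, was at 30.3 ± 8.93 CPM among KO tumours (SD, n = 6) and 46.4 ± 17.2 CPM among WT tumours (SD, n = 5), or -0.62 on the log2 scale (SE 0.26, edgeR unadjusted p = 0.0360, adjusted p = 0.180). The mouse genome holds near-identical copies of Il11ra1, and its uniquely aligned counts are uncertain for that reason. The ratio of Il6 to Il6ra counts was 0.0418 to 0.178 in KO tumours, inside the 0.0325 to 0.620 of WT tumours. The mean log2 ratio was -3.74 ± 0.84 (SD, n = 6) against -2.44 ± 1.66 (SD, n = 5), which differed by -1.29 (exact two-sided permutation test, p = 0.143, adjusted over 3 ratios 0.429). It was -0.85 without WT replicate B, -1.92 without WT replicate D (exact permutation p = 0.0286, adjusted 0.0857) and -0.18 without WT replicates A, B and C.

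Stat3 (ENSMUSG00000004040, chromosome 11, 100885098 to 100939540, minus strand), the transcription factor on which the family's receptors converge, was abundant in all tumours. It was at 119 CPM in WT replicate A, 81.7 in B, 194 in C, 174 in D and 192 in E, and ranged from 161 (replicate D) to 269 CPM (replicate F) in KO tumours. The group medians were nearly equal, 174 CPM in each, with WT replicates C, D and E within the KO range and only A and B below it. On the log2 scale the difference was 0.36 (SE 0.24, edgeR adjusted p = 0.363), and was 0.10 without WT replicates A, B and C. Socs3, which STAT3 induces and which shuts the receptor off, had -0.10 on that scale (SE 0.27, edgeR adjusted p = 0.847). The kinases Jak1 and Jak2 that act between receptor and STAT3 had 0.60 (SE 0.22, edgeR adjusted p = 0.133) and 0.34 (SE 0.22, edgeR adjusted p = 0.358). STAT3 acts once it is phosphorylated, which transcript levels do not measure.

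Cxcl12 (ENSMUSG00000061353, chromosome 6, 117168535 to 117181367, plus strand) encodes the fibroblast chemokine that holds T cells away from carcinoma cells through CXCR4. It was at 66.8 CPM in WT replicate A, 239 in B, 29.3 in C, 24.4 in D and 143 in E, a 9.80-fold range, and lay between 63.8 (replicate E) and 233 CPM (replicate C) in KO tumours, with a median of 153. WT replicates C and D were below every KO tumour, whereas WT replicate B was the highest of all. This gave 0.52 on the log2 scale (SE 0.54, edgeR adjusted p = 0.567), which became 1.14 without WT replicate B (edgeR adjusted p = 0.289), 0.28 without WT replicate D and 0.29 without WT replicate C. Cxcr4, its signalling receptor, was at 33.0 ± 8.60 CPM among KO tumours (SD, n = 6) and 23.0 ± 2.07 CPM among WT tumours (SD, n = 5), or 0.52 on the log2 scale (SE 0.19, edgeR unadjusted p = 0.0151, adjusted p = 0.128). Ackr3, a receptor that scavenges CXCL12, had 0.37 (SE 0.33, edgeR adjusted p = 0.50). The log2 ratio of Cxcl12 to Cxcr4 was 2.04 ± 0.65 for KO (SD, n = 6) against 1.60 ± 1.45 for WT tumours (SD, n = 5), which differed by 0.44 (exact two-sided permutation test, p = 0.541, adjusted over 3 ratios 0.812). That difference ran from 0.084 without WT replicate C to 0.90 without WT replicate B.

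Taking the 10 genes as a group, none passed an adjusted p of 0.05, with edgeR or with DESeq2, against 0.0181% of all genes tested with edgeR and 9.45% with DESeq2. At an unadjusted edgeR p under 0.05 there was 1 gene higher in KO tumours, Il6ra, and 0 lower, where 8.57% and 15.5% of all genes tested reached that level in these directions. DESeq2 gave the same counts of 1 and 0, against 9.97% and 16.5% of all genes. In no gene were the KO and WT values free of overlap, as they were in 3.6% of all genes tested. The median log2 fold change was -0.32 over the 10 genes and -0.03 over all genes tested, with 4 genes positive and 6 negative, where 48% of all genes were positive. The counts at an unadjusted p were sensitive to single tumours. Without WT replicate D, Il1a (-0.87), Lif (-0.52) and Il11 (-1.21) were lower at an unadjusted edgeR p under 0.05, where 18.1% of all genes were. At the same level Il1r1 (0.43) was higher without WT replicate E, where 13% of all genes were. Cxcl12 (1.14) was higher without WT replicate B, Lif (-0.53) lower without WT replicate C, and Il1a (-0.90) lower without KO replicate C.

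**Figure D2:**
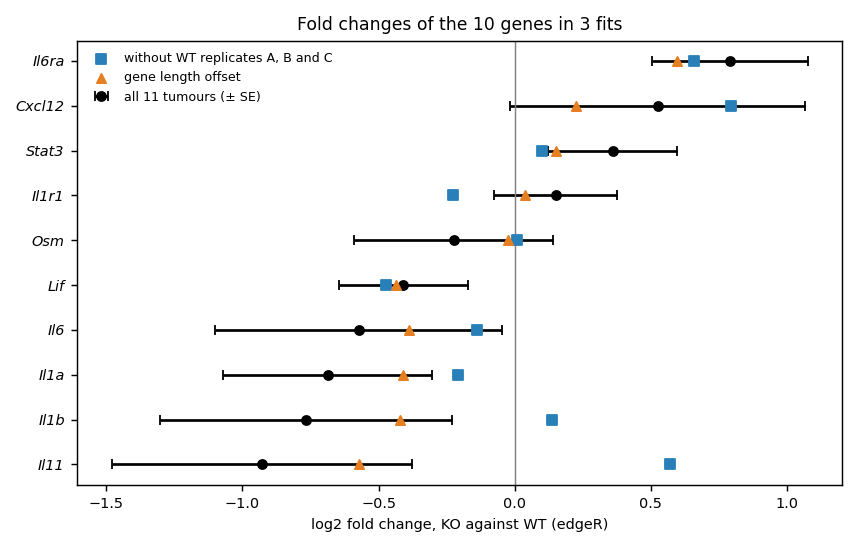
Log2 fold change (KO against WT, edgeR) of the 10 genes over all 11 tumours (black, bars ± SE), with an offset for gene length (orange triangles) and without WT replicates A, B and C (blue squares). Il6ra keeps values of 0.60 to 0.79 in these fits, whereas Il11 runs from -0.93 to 0.57.

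The direction of the differences followed transcript length. The 5 genes with under 3 kb of exonic sequence, Il1a, Il1b, Il6, Osm and Il11, all had negative log2 fold changes with a median of -0.69. The 4 genes with over 6 kb, Il1r1, Il6ra, Cxcl12 and Stat3, all had positive values with a median of 0.44, and Lif at 4350 bases was negative. Over the 10 genes the Spearman correlation of exonic length with log2 fold change was 0.891, given as a description, since the points share the same 11 libraries. All genes tested showed the same order, with median log2 fold changes of -0.52 under 1.5 kb, -0.24 from 1.5 to 3 kb, 0.01 from 3 to 6 kb and 0.18 over 6 kb.

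Without WT replicates A, B and C, the libraries with the negative length trends, the correlation over the 10 genes was 0.188. The medians of the short and long genes were then 0.01 and 0.38, and 6 genes were positive. Il1b moved from -0.77 to 0.14, Osm from -0.23 to 0.01, Il11 from -0.93 to 0.57 and Il1r1 from 0.15 to -0.23, all changes of sign with edgeR adjusted p-values of 0.634 to 0.995. Il6ra at 0.66, Cxcl12 at 0.79, Lif at -0.47, Il1a at -0.21, Il6 at -0.14 and Stat3 at 0.10 kept their sign. That comparison rests on 2 WT tumours. An offset that takes each tumour's length trend off brought the medians of all genes tested to between -0.04 and -0.01 in the 4 length ranges. With it all 10 genes kept their sign and the correlation of length with fold change over them was 0.770, with Il6ra at 0.60 (edgeR unadjusted p = 0.0316), Il1b at -0.42 and Il11 at -0.57. With the ribosomal RNA share as covariate the correlation was 0.673, and without WT replicates A and B alone it was 0.176. Whether genotype or library brought the length trend about cannot be told apart, as 3 of the 5 WT libraries carry it and no KO library does. The 3 ratios given above pair genes of unlike exonic length and are not free of this trend. Il6 has 2428 bases and Il6ra 8642, and Cxcl12 has 8176 and Cxcr4 1808. Without WT replicates A, B and C the differences in log2 ratio were 0.03 (Il1b to Il1rn), -0.18 (Il6 to Il6ra) and 0.59 (Cxcl12 to Cxcr4).

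**Figure D3:**
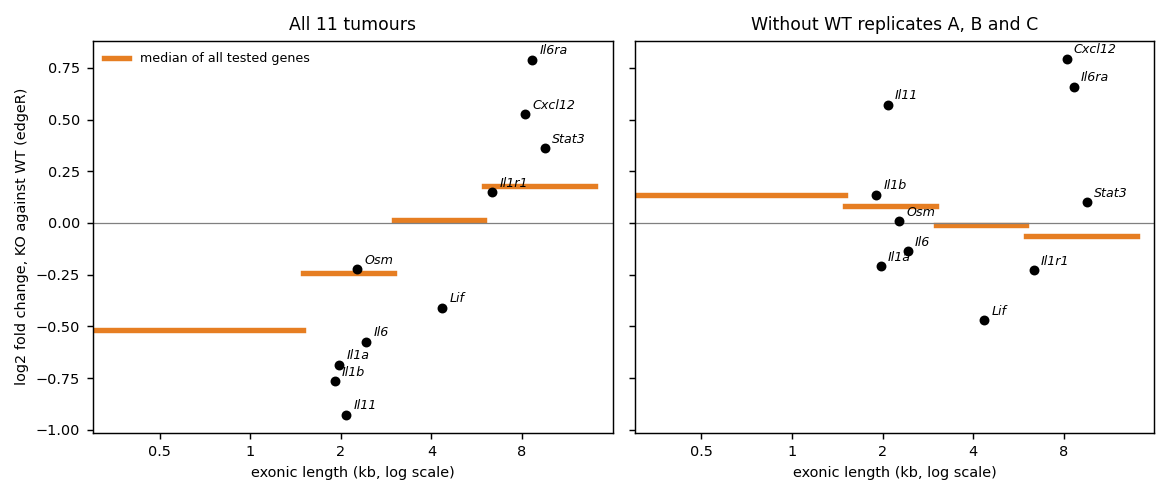
Log2 fold change (KO against WT, edgeR) of the 10 genes against exonic length in kb (log scale), over all 11 tumours (left) and without WT replicates A, B and C (right); orange bars are medians of all genes tested in each length range. On the left the 5 short genes lie below 0 and the 4 long genes above it, following the medians from -0.52 to 0.18; on the right the medians run from 0.13 to -0.06.

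Levels between genes were compared per length, in units of TPM that divide counts by exonic length and scale every library to the same total. Il1b had the highest median over the 11 tumours, 89.9 TPM, followed by Stat3 at 53.8, Cxcl12 at 38.5, Il1r1 at 29.9, Lif at 13.8, Il6ra at 10.7, Il1a at 8.92, Il11 at 6.86, Osm at 4.03 and Il6 at 3.66. Neighbours in this order kept it in 6 to 10 of the 11 tumours. Il1r1 exceeded Lif in 10 tumours, whereas Cxcl12 exceeded Il1r1 in 4 of 6 KO and 3 of 5 WT tumours, and Osm exceeded Il6 in 5 of 6 KO and 2 of 5 WT tumours, so that the order of these last pairs was not steady over tumours. Il6ra exceeded Il1a in 5 of 6 KO tumours but in 1 of 5 WT tumours, with means of 12.8 and 10.8 TPM among KO and 6.37 and 13.3 TPM among WT tumours. Il1a has 1974 exonic bases and Il6ra 8642, and dividing by length does not take off the length trend of a library. Il6ra was at 4.23 TPM in WT replicate A and 1.30 TPM in WT replicate B. On the same scale Il1rn had a median of 37.6 TPM, the shared receptor chain Il6st 39.9 TPM, Osmr 10.4 TPM and Lifr 4.30 TPM.

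Il1a, Il1b, Il6 and Osm went up and down together from tumour to tumour. After each genotype's mean was taken off, the log2 CPM of Il1a and Il1b correlated with a Pearson r of 0.958 over the 11 tumours, and the 6 pairs among Il1a, Il1b, Il6 and Osm had r of 0.755 to 0.958. Il11 (r of 0.497 to 0.698) and Lif (r of 0.399 to 0.422) were less closely tied to these cytokines. KO replicate C had the highest KO value of Il1a, Il1b, Il6, Osm, Il11 and Cxcl12, and WT replicate D the lowest WT value of the same 6 genes. Cxcl12 joined Il1a, Il1b, Il6 and Osm, with r of 0.800 with Osm, 0.772 with Il1b and 0.681 with Il6. Il6ra and Stat3 formed a pair of their own (r of 0.805), and Stat3 ran opposite to Il11 (r of -0.650). These are descriptions over shared libraries, and the short cytokine genes share the length trend given above.

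**Figure D4:**
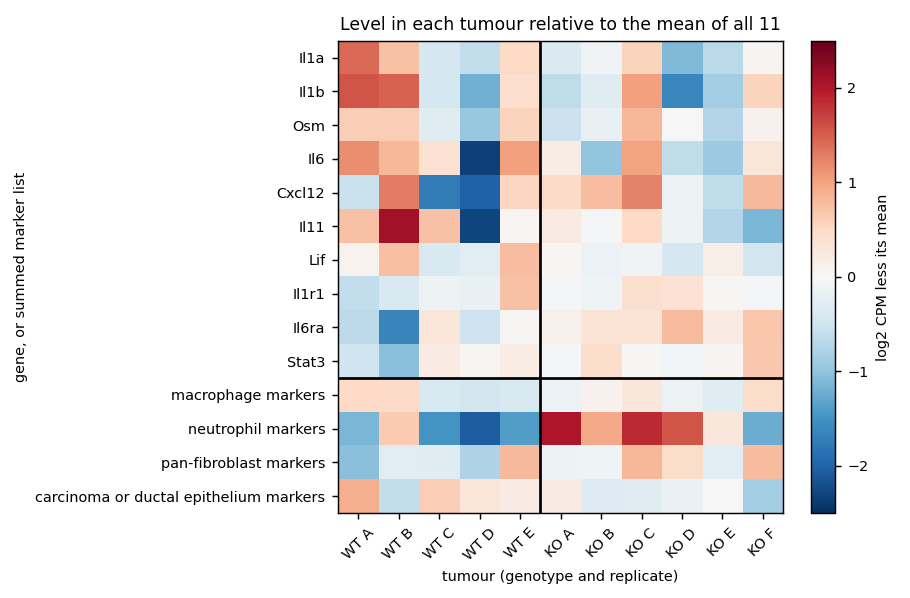
Log2 CPM of each gene, and of 4 summed marker lists, in each of the 11 tumours less its mean over all 11 (colour scale, red above and blue below the mean; WT left and KO right of the vertical line). Il1a, Il1b, Osm and Il6 are all above their means in WT replicates A, B and E and KO replicates C and F, while the neutrophil markers are highest in KO replicates A, C and D.

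Markers of the cell types that could supply these transcripts were set beside them. Macrophage markers summed to 2977 to 5820 CPM among WT and 3356 to 5690 CPM among KO tumours, with the highest WT sums in replicates A and B, and 4 of 10 markers were higher in KO tumours at an unadjusted edgeR p under 0.05. Within genotypes this sum correlated with Il1b (r of 0.870) and Il1a (r of 0.821) over the 11 tumours. Sums were not weighted, and Lyz2 alone averaged 2055 CPM among KO and 2230 CPM among WT tumours. WT replicates A and B are also libraries with a negative length trend, and its part in these correlations was not tested. Neutrophil markers summed to 284 to 2710 CPM among KO and 160 to 1050 CPM among WT tumours, 8 of 10 were higher in KO tumours at an unadjusted edgeR p under 0.05, and their sum correlated within genotypes with Il1b at 0.206. Of all genes tested, 8.57% were higher at that level. Among the 10 genes the neutrophil sum was most closely tied to Il11 (r of 0.770) and, inversely, to Stat3 (r of -0.797). S100a9 had the highest mean of that list, 739 CPM among KO and 161 CPM among WT tumours. Il1b, which neutrophils and macrophages both transcribe when activated, had a log2 fold change of -0.77 in the same comparison.

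The fibroblast markers summed to 4535 to 9611 CPM among KO and 2621 to 9509 CPM among WT tumours, with 0 of 9 at an unadjusted edgeR p under 0.05. Their sum correlated within genotypes with Il1r1 (r of 0.808), less closely with Osm (0.540), Cxcl12 (0.504) and Il6 (0.456), and hardly with Il11 (0.084). Carcinoma markers, at 2825 to 5880 CPM among KO and 3310 to 9572 CPM among WT tumours, had 3 of 8 genes lower in the KO group at an unadjusted edgeR p under 0.05. Markers of mast cells had 3 of 6 genes higher and those of B cells 6 of 6, while 0 of 6 T cell markers reached that level. Over all genes tested, 8.57% were higher and 15.5% lower at that level. No marker of any list was at 0 in all tumours, and acinar markers, the digestive enzyme transcripts of normal pancreas, reached 690 CPM among KO and 1866 CPM among WT tumours. The part of these cell types in the results was not tested, and in bulk tumours fewer cells of a type and less RNA per cell cannot be told apart.

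The rest of the circuit was described from 7 lists with 145 genes, of which 20 were higher and 9 lower in KO tumours at an unadjusted edgeR p under 0.05, and 1 passed after adjustment. Of all genes tested, 8.57% and 15.5% reached the unadjusted level in these directions. In the IL-1 pathway, from ligand processing through the receptor to NF-κB, 5 of 42 genes were higher and 2 lower, with a median log2 fold change of 0.16. Irak3, which encodes a brake on signalling by this receptor, was the gene that passed, at 23.1 ± 2.25 CPM among KO (SD, n = 6) and 10.5 ± 1.5 CPM among WT tumours (SD, n = 5), or 1.14 on the log2 scale (SE 0.16, edgeR adjusted p = 0.0473). Its log2 fold change lay between 1.00 and 1.21 in every fit made, but the adjusted p rose above the threshold, to between 0.0523 and 0.136, when any of KO replicates A to E or WT replicates A to C was left out. It was also above the threshold with the ribosomal RNA share as covariate (edgeR adjusted p = 0.0793), without WT replicates A and B together (0.123) and without A, B and C together (0.0650). Irak3 stayed below the threshold with DESeq2 (adjusted p = 1.41e-10), by which 9.45% of all genes tested passed. The same held with the gene length offset (edgeR adjusted p = 0.0193) and without the filter on low counts (0.0241). Tab3, an adaptor of the kinase TAK1, and Tollip, an inhibitor of the receptor complex, had log2 fold changes of 0.81 (SE 0.24) and 0.46 (SE 0.16), and Il1rl1, the IL-33 receptor, of 0.82 (SE 0.28). Nfkbiz, an NF-κB cofactor that IL-1 induces, had -0.64 (SE 0.18) and the cytokine Il18 -0.52 (SE 0.19). Their edgeR adjusted p-values were 0.0956 to 0.137, and none of these 5 passed. Irak3 and Tab3 were without overlap between genotypes, as were 3.6% of all genes tested.

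Of 14 tested genes of the IL-6 family list, 1 was higher and 3 were lower at an unadjusted edgeR p under 0.05, with a median of 0.17. Adam17, the protease that sheds the IL-6 receptor, had a log2 fold change of 0.61 (SE 0.23). The family cytokines Clcf1 and Ctf1 had -0.81 (SE 0.29) and -0.74 (SE 0.32), along with Il11ra1. In the JAK-STAT list 5 of 20 genes were higher and 2 lower, with a median of 0.26, led by Stat6 (0.56, SE 0.15), the factor downstream of IL-4, and the phosphatase Ptpn1 (0.45, SE 0.14), both without overlap between genotypes. Such a separation was found in 3.6% of all genes tested. The phosphatases Ptpn6 and Ptpn11 had 0.53 (SE 0.22) and 0.59 (SE 0.25), and Socs2, a feedback inhibitor of growth hormone signalling, had -0.81 (SE 0.29). The edgeR adjusted p-values of these genes lay between 0.0928 and 0.182.

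Genes that STAT3 is known to induce went in both directions, with 10 of 20 tested genes positive, a median of -0.01, 3 higher and 1 lower at an unadjusted edgeR p under 0.05. Lcn2, an iron-binding protein of neutrophils and inflamed epithelium, was at 180 ± 76.3 CPM among KO (SD, n = 6) and 63.8 ± 27.7 CPM among WT tumours (SD, n = 5), or 1.5 on the log2 scale (SE 0.36, edgeR adjusted p = 0.0847). Icam1, an adhesion molecule for leukocytes, had 0.86 (SE 0.38), Il4ra, a chain of the IL-4 receptor, 0.58 (SE 0.21), and the AP-1 factor Junb -0.50 (SE 0.23), with edgeR adjusted p-values of 0.128 to 0.201. Lrg1 had 0.67 (SE 0.37) and Myc -0.33 (SE 0.19), both with an unadjusted edgeR p above 0.05.

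Other genes of inflammatory fibroblasts had a median of 0.18, with 16 of 25 positive, 3 higher and 0 lower at an unadjusted edgeR p under 0.05. The growth factor of macrophages Csf1 was at 119 ± 33.8 CPM among KO (SD, n = 6) and 64.4 ± 32.3 CPM among WT tumours (SD, n = 5), or 0.88 on the log2 scale (SE 0.32, edgeR adjusted p = 0.135). The complement component C3 had 1.20 (SE 0.52) and the extracellular dismutase Sod3 0.61 (SE 0.26), with edgeR adjusted p-values of 0.181 and 0.172. The chemokine Ccl7 had -0.68 (SE 0.39), the receptor Pdgfra 0.60 (SE 0.36), and Cfd, which adipocytes also express, 2.11 (SE 1.39), none at an unadjusted edgeR p under 0.05. The 9 negative genes were Ccl7, the granulocyte attractants Cxcl2 (-0.55), Cxcl5 (-0.54) and Cxcl1 (-0.50), Saa3 (-0.48), Col14a1 (-0.46), Clec3b (-0.33), Csf3 (-0.25) and Ptgs2 (-0.14).

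The myofibroblast list, with which the inflammatory genes are contrasted, had an almost equal median of 0.18, with 11 of 20 genes positive, 2 higher and 1 lower at an unadjusted edgeR p under 0.05. Tenascin C (Tnc) had a log2 fold change of 1.08 (SE 0.38), thrombospondin 2 (Thbs2) 0.95 (SE 0.37) and the smooth muscle actin Actg2 -1.24 (SE 0.46), with edgeR adjusted p-values of 0.126 to 0.153. The 9 negative genes were Actg2, Cnn1 (-0.70), Tagln (-0.63), Acta2 (-0.32), Tpm2 (-0.32), Myl9 (-0.32), Hopx (-0.29), Cnn2 (-0.16) and Tpm1 (-0.08). All but Hopx are contractile or actin-binding genes, but only Actg2 among the 9 had an unadjusted edgeR p under 0.05. For the others it ran from 0.138 (Tagln) to 0.726 (Tpm1). The list median thus joins positive and negative values, most of them within the spread between tumours. What part the length trend given above had in the signs within this list and the inflammatory fibroblast list was not tested. In the CXCL12 axis 1 of 5 genes, Cxcr4, was higher at that level, and Cxcl14 had -0.98 (SE 0.53) and Dpp4, the protease that cleaves CXCL12, 0.61 (SE 0.35), both with an unadjusted edgeR p above 0.05.

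**Figure D5:**
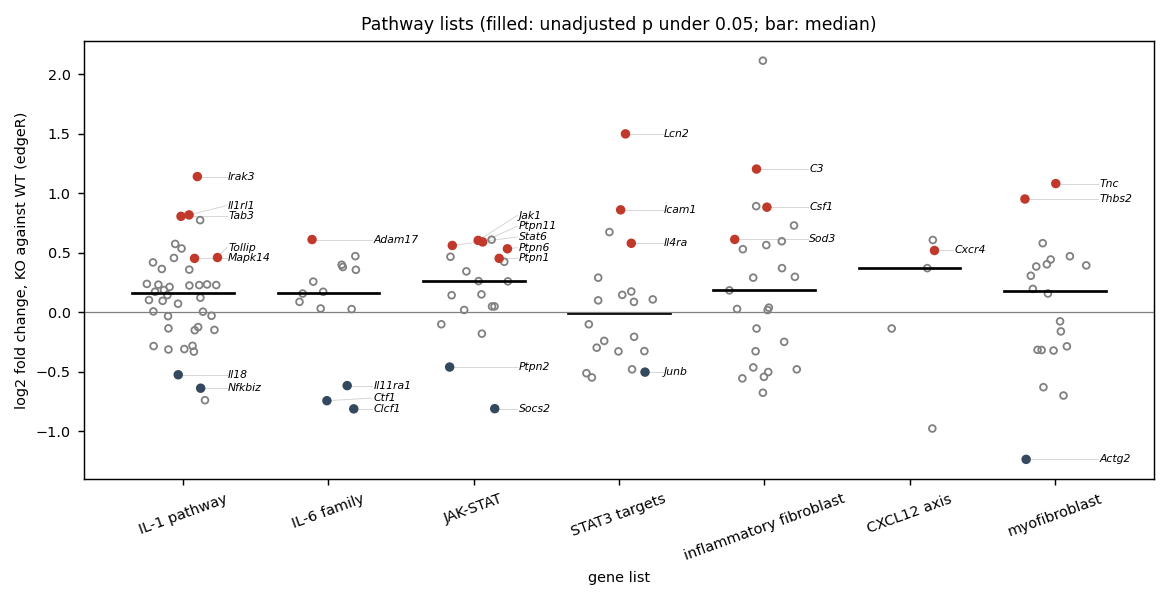
Log2 fold change (KO against WT, edgeR) of each tested gene of 7 lists; filled points (red higher, blue lower in KO tumours) had an unadjusted p under 0.05, and horizontal bars are list medians. Medians lie between -0.01 (STAT3 targets) and 0.37 (CXCL12 axis), with Irak3 at 1.14 the gene that passed after adjustment.

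The genes most like each of the 10 were sought by Pearson r of log2 CPM over the 11 tumours after each genotype's mean was taken off, among genes with a mean of at least 1 CPM. Il1b was most like Tmed9 (0.978), Gm5547 (0.968) and Ifitm1 (0.958), and Il1a like Clec7a (0.964) and Nfil3 (0.961). Osm was most like Pdpn (0.952), Hspb8 (0.941) and the myeloid receptor gene Trem1 (0.926), and Il11 like Ier3 (0.950). Il6 came closest to Insyn1 (0.946), Zfp692 (0.934) and G0s2 (0.926). Il1r1 followed Exoc3l2 (0.964), P3h1 (0.947) and the pericyte gene Cspg4 (0.941), and Cxcl12 followed A730049H05Rik (0.943), C130050O18Rik (0.936) and Qprt (0.934). Il6ra was most like Safb (0.948), Itih5 (0.946) and Spock2 (0.936), Lif like Wdr36 (0.961) and Plekha8 (0.934), and Stat3 like Irf2 (0.954), Pltp (0.953) and Vcam1 (0.952). With 11 tumours and 16536 genes, high values of r are found for any gene, and nothing about shared control follows from them.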

How the data were processed

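Per the labels and the study's methods, RNA from 11 tumour pieces was made into strand-specific libraries. Read pairs passed through Trimmomatic and were placed on mm10 by HISAT2 2.1.0, and uniquely aligned reads were counted over exons with HTSeq 0.11.2. The authors deposited whole-number counts per gene, used here for all tests, and a normalised signal, which is the same count divided by 1 factor per tumour (0.514 to 1.42). Of 54232 identifiers, 54165 matched a symbol in GENCODE M21. Groups and letters came from the sample titles (the same letters in both groups are different animals), and the labels give no batch.

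KO and WT tumours were compared with the quasi-likelihood test of edgeR 4.0.16 (R 4.3.3), with TMM scaling, filterByExpr, no covariate and Benjamini-Hochberg adjustment over 16536 genes at a threshold of 0.05; DESeq2 1.42.0 was an alternative, and the script was tested on simulated counts. SE is the absolute log2 fold change over the root of F. Log2 ratios within a library used a prior count of 0.5 and exact permutation tests (scipy 1.17.1, two-sided, smallest possible p 0.00433). Alternatives were another scaling, no count filter, a ribosomal RNA covariate, a replicate block, each tumour left out, and WT replicates A, B and C left out together; a gene length offset and the removal of WT replicates A and B together were chosen after seeing the data. The 10 genes were named in full, with fixed partners and up to 6 genes of each list by smallest p. The negative genes of the inflammatory fibroblast and myofibroblast lists were named in addition, after the values were seen. The genes and lists were chosen with earlier results of these data known. Promoter windows came from RefSeq.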

Additional observations from a re-analysis of the deposited data

Results flagged for a closer look

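Among 26 groups of 5 or 6 tumours examined (the 10 genes and 3 ratios in each genotype), 1 value lay far from the others of its group, where chance gives about 1.3. That value was Il6 in WT replicate D, with a log2(CPM + 1) of 0.667 beside 2.29 to 2.93 for the 4 remaining WT tumours. The gap to the nearest tumour was 0.715 of the range of the group, above Dixon's critical value for 5 samples. Il6 rested on 15 counts in that tumour. Without that tumour the log2 fold change of Il6 was -0.86 (edgeR unadjusted p = 0.0519, adjusted p = 0.175), against -0.57 with it.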

How the results depend on the processing

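None of the 10 genes passed the adjusted threshold in any of the 19 alternative fits, and 182 of 190 fold changes of these genes kept their direction. The other 8 changed sign. Without WT replicates A and B together, Il1b was at 0.21, Il1r1 at -0.094 and Osm at 0.089; without WT replicates A, B and C, Il1b was at 0.14, Il1r1 at -0.23, Osm at 0.0071 and Il11 at 0.57; and Il1r1 was at -0.035 once the ribosomal RNA share entered as covariate. What caused these changes was not tested. The count of these genes higher at an unadjusted p under 0.05 was 0 with that covariate and 0 without WT replicates A and B, in place of 1. When single tumours were left out, 1 to 2 genes were higher and 0 to 3 lower, and of the pathway lists 15 (without KO replicate F) to 33 (without WT replicate E) were higher and 2 (without WT replicate B) to 14 (without WT replicate D) lower. The pathway counts of 20 higher and 9 lower were 9 and 3 with the ribosomal RNA covariate, 25 and 5 with the gene length offset, and 12 and 7 without WT replicates A and B. The difference in log2 ratio of Il1b to Il1rn, 0.008, lay between -0.21 and 0.20 when single tumours were left out, and was below 0 in 4 of 11 such fits. The other ratios kept their sign in these fits, but lay between 0.084 and 0.90 for Cxcl12 to Cxcr4 and between -1.92 and -0.85 for Il6 to Il6ra.

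Over all genes edgeR called 3 higher and 0 lower, DESeq2 566 and 997, the unfiltered fit 39 and 6, the gene length offset 73 and 34, and the ribosomal RNA covariate 0 and 0 (1470 at an unadjusted p under 0.05). With 1 tumour left out the range was 0 to 608 higher and 0 to 1248 lower, both largest without WT replicate E.

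Same-lettered tumours did not deviate together, with correlations of -0.161 to 0.149 over genes, and 1 of 5 KO tumours correlated best with its own letter. These values showed no pairing by letter but cannot exclude one, and the labels do not say what the letters stand for. With the letter as a replicate block over 10 tumours, 0 of the 10 genes passed and 1 was higher at an unadjusted p under 0.05, and the pathway counts were 18 higher and 5 lower, against 15 and 8 in the same tumours without the block; 7 genes in all were called higher and 1 lower, against 30 and 2. Irak3 had an adjusted p of 0.145 with the block and 0.0253 in the same tumours without it. At these depths Il6, Osm and Il11 rested on 15 to 218 counts per tumour.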
